A study of Homo sapiens with 45 samples.

Results

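The T cell receptor reads antigen outside the cell, and a small set of membrane chains, kinases and adaptors carries that reading inward. Messenger RNA of 9 genes of this apparatus was followed here in human T-cell acute lymphoblastic leukaemia (T-ALL) lines. Subunits of the cBAF complex were targeted by guides, or its ATPases were inhibited. The genes are CD3D, CD3E, CD3G, CD247, LCK, ZAP70, LAT, TRAT1 and SH2D1A. They were taken by symbol from the 2 deposited expression tables, which list 38557 genes each. All 9 symbols were found in both tables, and all 9 had at least 1 TPM (a level in which reads are scaled by gene length and by library size) in at least 3 libraries of each table.

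The series held 45 RNA-seq libraries in 15 groups of 3 biological replicates, from 4 T-ALL lines, Jurkat, TALL-1, KOPT-K1 and CCRF-CEM. cBAF is a nucleosome remodeller driven by the ATPases SMARCA4 or SMARCA2 and carrying ARID1A or ARID1B. The comparisons ask what targeting these subunits, or inhibiting the ATPases, does to gene expression. Jurkat cells that express Cas9 received lentiviral guides and 4 d of puromycin selection, and their RNA was taken at day 10. The guides were directed at ARID1A (gARID1A), at ARID1A with ARID1B (gARID1A_1B), at SMARCA4 (gSMARCA4), at SMARCA4 with SMARCA2 (gSMARCA4_A2), or at AAVS1, a site outside these genes, which gave the control group gAAVS1. All 5 guide groups therefore share Cas9, the lentivirus and the selection. Jurkat cells also received 1 µM BRM014, an inhibitor of the SMARCA4 and SMARCA2 ATPases, or 0.01% DMSO, for 6 h or 8 d, and the other 3 lines received BRM014 or DMSO for 6 h. The labels do not say whether the Cas9 cells were 1 clone.

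In a resting T cell the antigen-binding chains are held at the surface by the CD3 chains and by CD247, the zeta chain, all of which carry tyrosine motifs in their tails. LCK phosphorylates these motifs, ZAP70 docks on them, and ZAP70 then phosphorylates LAT, the membrane scaffold on which phospholipase C gamma and Ras activators assemble. TRAT1 is a small transmembrane adaptor that associates with the receptor complex. SH2D1A, also called SAP, is an adaptor that couples the SLAM family of receptors to the kinase FYN. T-ALL arises from immature thymic T cells, and lines differ in how far they have come in acquiring this receptor.

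Jurkat libraries held 29674228 to 47932949 reads on genes and the other libraries 19717414 to 27037622, so counting error was small for all members except TRAT1 at its lowest. The share of TPM on mitochondrial genes was 20.0 to 24.9% for Jurkat libraries against 4.99 to 8.04% for the rest, and the tables also differ in extraction and library kit, so no value was tested across them. No replicate pair held identical values, and the chi-square per degree of freedom between replicates was 2.59 to 48.0 over 45 pairs. Replicate 3 of CCRF-CEM in both treatments, replicate 3 of TALL-1 in DMSO and replicate 1 of Jurkat in DMSO at 8 d stood apart, with 20.0 to 48.0 against the other 2 replicates, which differed from each other by 3.43 to 7.91. Leaving out TALL-1 DMSO replicate 3 or Jurkat DMSO 8 d replicate 1 changed no call on a member, and the members whose call moved without CCRF-CEM replicate 3 are given below with both values. In the targeted genes, SMARCA4 mRNA fell in gSMARCA4 (-1.12 ± 0.06, adjusted p = 1.6e-12) and in gSMARCA4_A2 (-0.95 ± 0.06), ARID1B mRNA fell in gARID1A_1B (-0.88 ± 0.06) and ARID1A mRNA fell in gARID1A by a small amount (-0.18 ± 0.05). SMARCA2 mRNA in gSMARCA4_A2 (0.04 ± 0.07, adjusted p = 0.669) and ARID1A mRNA in gARID1A_1B (0.10 ± 0.05, adjusted p = 0.0965) did not pass the test against gAAVS1, and an mRNA level does not report a frameshift. SMARCA2 mRNA rose in gSMARCA4 (0.28 ± 0.07, adjusted p = 0.00377). Against gSMARCA4, gSMARCA4_A2 was lower in SMARCA2 (-0.24 ± 0.07, adjusted p = 0.0121) and higher in SMARCA4 (0.17 ± 0.06, adjusted p = 0.0235). Against gARID1A, gARID1A_1B was higher in ARID1A (0.28 ± 0.05, adjusted p = 0.000162) and SMARCA2 (0.30 ± 0.07, adjusted p = 0.00443). The groups of each pair thus differed in mRNA of more than the added target. The T cell markers CD7, CD2, CD5, CD28 and CD1E summed to 79.2 to 108 TPM in Jurkat controls and 188 to 691 TPM in controls of the other lines. They were lower after BRM014, at 40.5 to 47.9 TPM in Jurkat at 6 h, 54.1 to 59.6 TPM in Jurkat at 8 d, 83.6 to 124 TPM in CCRF-CEM, 425 to 469 TPM in KOPT-K1 and 196 to 237 TPM in TALL-1. With guides they were 93.2 to 94.1 TPM in gAAVS1, 89.2 to 91.3 TPM in gARID1A and 84.5 to 87.4 TPM in gARID1A_1B. They were 74.8 to 81.5 TPM in gSMARCA4 and 67.3 to 69.7 TPM in gSMARCA4_A2. MS4A1, a defining B cell gene, was at 0 in every group, while the B cell marker sum, from CD79B and CR2, was 26.2 to 27.8 TPM in CCRF-CEM in DMSO and 4.26 to 4.80 TPM in BRM014. Marker sums for myeloid and NK cells stayed under 1 TPM except for NK cell genes in TALL-1, at 2.97 to 4.94 TPM. Epithelial and fibroblast genes summed to up to 9.85 TPM, in CCRF-CEM in DMSO from EPCAM and KRT8, and the part of any of these in the results was not tested.

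Values below are TPM per library in the order of replicates 1, 2 and 3, and a change is a log2 fold change on the log2(TPM + 1) scale ± its standard error from limma, with a Benjamini-Hochberg adjusted p over all genes of the table. A change is called at an adjusted p under 0.05. Compared with its control, the shortest treatment lowered most of the set in Jurkat. After 6 h of BRM014, 8 of the 9 members fell and 0 rose, where 20.7% of all 17936 genes fell and 26.8% rose. The members were chosen with earlier results of these data known, so such counts beside shares of all genes are not a test of the set. The shares cover every gene that reached 1 TPM in 3 libraries and were not matched to the members for level. The median change of the members was -0.57, beside 0.04 for all genes. In bulk RNA a smaller share of cells that express a gene and less RNA per cell cannot be told apart.

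By 8 d the set had split. Of the 9 members 5 rose and 3 fell, where 36.9% of all genes rose and 23.0% fell, and the median was 0.32 beside 0.08 for all genes. In gARID1A 0 rose and 3 fell (background 7.72% and 13.2%), in gARID1A_1B 2 rose and 7 fell (17.0% and 23.1%), in gSMARCA4 2 rose and 5 fell (25.1% and 15.8%), and in gSMARCA4_A2 1 rose and 5 fell (40.9% and 21.1%). At an unadjusted p under 0.05 by limma, 0 members were higher at 6 h and 1, CD3D, was higher in gARID1A, and limma-voom on recovered reads gave the same 0 and 1. In the other lines at 6 h, 3 rose and 5 fell in CCRF-CEM (28.9% and 20.9%), 1 rose and 6 fell in KOPT-K1 (22.9% and 15.2%), and 2 rose and 5 fell in TALL-1 (26.6% and 19.3%). The 4 guide comparisons share the gAAVS1 libraries.

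Those background shares depend on scaling. Of all called genes, the share called higher went from 61.6 to 49.1% at 8 d when libraries were rescaled by the median ratio, from 37.0 to 50.5% in gARID1A, from 61.4 to 51.0% in gSMARCA4, from 65.9 to 45.5% in gSMARCA4_A2, from 58.0 to 45.8% in CCRF-CEM and from 60.1 to 45.4% in KOPT-K1. The same share went from 56.4 to 49.1% in Jurkat at 6 h, from 42.4 to 49.4% in gARID1A_1B and from 58.0 to 48.2% in TALL-1. In gSMARCA4_A2 this rescaling moved the median of all genes from 0.11 to -0.03.

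**Figure D1:**
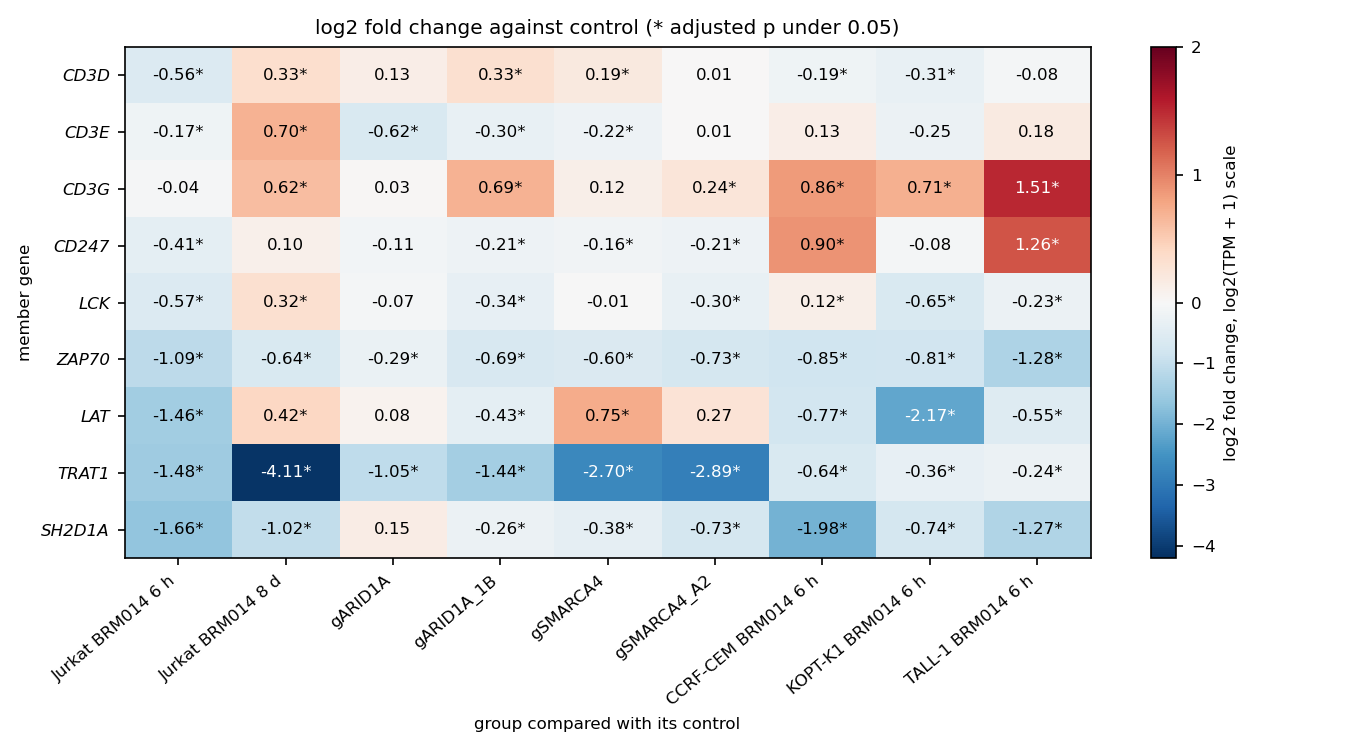
Log2 fold change of each member (rows) against its control in 9 comparisons (columns), on the log2(TPM + 1) scale, with an asterisk where the adjusted p was under 0.05. The rows of ZAP70 and TRAT1 are below 0 with an asterisk in all 9 columns, the SH2D1A row in 8, and the CD3G row is called higher in 6 columns and lower in 0.

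Grouped by member rather than by treatment, 2 genes moved 1 way throughout. ZAP70 and TRAT1 were called lower in all 9 comparisons with a control, and SH2D1A in 8 of 9. CD3G was called higher in 6 and lower in 0. The remaining 5 members, CD3D, CD3E, CD247, LCK and LAT, were called in both directions, depending on the line, the time or the guide.

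The genes lie on 6 chromosomes (GRCh38, GENCODE v29 coordinates). CD3E (chromosome 11, 118304545 to 118316175, plus strand), CD3D (chromosome 11, 118338954 to 118342744, minus strand) and CD3G (chromosome 11, 118344344 to 118355161, plus strand) form a cluster of 50.432 kb in RefSeq, in which CD3D and CD3G are read away from each other from starts 1639 bases apart. CD247 (chromosome 1, 167430640 to 167518610) and LCK (chromosome 1, 32251239 to 32286165) are both on chromosome 1, ZAP70 is at chromosome 2, 97713560 to 97739862, TRAT1 at chromosome 3, 108822698 to 108855005, LAT at chromosome 16, 28984826 to 28990783 and SH2D1A at chromosome X, 124227868 to 124373197. LAT overlaps the annotated genes AC109460.3 on its own strand and AC109460.4 on the other. CD247 holds AL359962.1 and AL359962.2 on its own strand. The gene model of SH2D1A reaches back over STAG2 on its own strand and has AL022718.1 on the other. The Jurkat kit did not keep strand, so reads of LAT and AC109460.4, and of SH2D1A and AL022718.1, cannot be told apart there.

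The promoters of 7 of the 9 members are in the RefSeq table (GRCh38.p14). The 250 bases upstream of the first listed start are shown for the 3 members that were lower in 8 or 9 comparisons and for 2 that were not, CD3D and CD247, 5′ to 3′ on the strand of the gene. Capitals mark the letters TGTGGT or its complement ACCACA, read by RUNX factors, and AGGAAG or its complement CTTCCT, read by ETS factors, since both families act in T cells. E-box, GATA and TCF letters were also searched and are not marked. TRAT1 is at chr3:108822536-108822785 (plus strand), ZAP70 at chr2:97713326-97713575 (plus), SH2D1A at chrX:124346313-124346562 (plus), CD3D at chr11:118342706-118342955 (minus) and CD247 at chr1:167518530-167518779 (minus).
TRAT1: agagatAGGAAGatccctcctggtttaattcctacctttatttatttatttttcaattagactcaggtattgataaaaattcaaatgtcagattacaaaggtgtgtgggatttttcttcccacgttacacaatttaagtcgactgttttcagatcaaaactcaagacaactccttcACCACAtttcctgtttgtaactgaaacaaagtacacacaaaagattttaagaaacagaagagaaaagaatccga
ZAP70: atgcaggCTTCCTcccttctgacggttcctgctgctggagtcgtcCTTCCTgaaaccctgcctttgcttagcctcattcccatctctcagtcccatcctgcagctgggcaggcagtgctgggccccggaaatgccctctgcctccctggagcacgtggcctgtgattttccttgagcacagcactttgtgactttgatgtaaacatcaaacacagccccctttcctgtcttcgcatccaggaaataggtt
SH2D1A: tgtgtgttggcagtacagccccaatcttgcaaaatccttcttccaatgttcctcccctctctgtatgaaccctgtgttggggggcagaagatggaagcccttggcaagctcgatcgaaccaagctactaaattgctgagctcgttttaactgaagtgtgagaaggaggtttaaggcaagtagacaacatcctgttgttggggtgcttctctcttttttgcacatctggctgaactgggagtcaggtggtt
CD3D: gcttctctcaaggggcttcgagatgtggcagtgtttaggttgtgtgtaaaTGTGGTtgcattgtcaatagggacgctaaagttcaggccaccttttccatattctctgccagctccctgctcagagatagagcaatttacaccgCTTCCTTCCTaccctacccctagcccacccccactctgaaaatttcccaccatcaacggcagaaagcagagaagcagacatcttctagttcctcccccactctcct
CD247: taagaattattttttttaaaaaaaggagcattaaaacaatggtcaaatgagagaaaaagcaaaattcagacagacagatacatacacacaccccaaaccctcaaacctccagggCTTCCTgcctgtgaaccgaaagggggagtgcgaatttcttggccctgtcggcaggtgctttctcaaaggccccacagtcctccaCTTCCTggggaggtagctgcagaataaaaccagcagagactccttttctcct
Among 35116 promoters of the same length, 11% held the RUNX letters and 28.7% the ETS letters on either strand. TRAT1 and CD3D each held 1 RUNX match, and ZAP70, CD247 and CD3D each held 2 ETS matches and TRAT1 held 1, while neither string occurred in the SH2D1A window. Both strands were searched, no RUNX match overlapped an ETS match in these 5 windows, and the 2 ETS matches of CD3D overlap each other. Of the windows not shown, the first listed for LCK held 1 RUNX and 2 ETS matches. The LAT windows and the later listed ZAP70 windows held neither string. A match describes these letters and not binding.

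The 3 CD3 chains are neighbours and are assembled into the same receptor, but their mRNAs were called differently. In Jurkat at 6 h CD3D was 618, 624 and 655 TPM in DMSO and 429, 433 and 423 TPM in BRM014. CD3E was 716, 703 and 738 TPM in DMSO and 623, 659.6 and 628 TPM in BRM014. CD3G was 128, 118 and 135 TPM in DMSO and 126, 118 and 126 TPM in BRM014. The CD3D and CD3E groups did not overlap, and the CD3G groups did. CD3D fell (-0.56 ± 0.05, adjusted p = 2.93e-09), CD3E fell with a smaller estimate (-0.17 ± 0.04, adjusted p = 0.00158), and the CD3G value of -0.04 ± 0.05 did not pass the test (adjusted p = 0.56).

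At 8 d all 3 CD3 chains rose. CD3D was 455, 489.5 and 479 TPM in DMSO and 605, 550.2 and 637 TPM in BRM014, and CD3E was 665, 608 and 584 TPM in DMSO and 1013, 976 and 1027 TPM in BRM014. CD3G was 112, 100.2 and 106 TPM in DMSO and 159, 165 and 167 TPM in BRM014. Every treated library was above every control. The changes were 0.33 ± 0.05 (adjusted p = 3.39e-06) for CD3D, 0.70 ± 0.04 (adjusted p = 5.18e-12) for CD3E and 0.62 ± 0.05 (adjusted p = 4.89e-10) for CD3G. Set against DMSO at 6 h rather than at 8 d, the CD3D mean of 597 TPM was under the 632 TPM of the earlier control, whereas CD3E and CD3G were above it.

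Guides separated CD3E from its neighbours. CD3E was 639, 646 and 659 TPM in gAAVS1, 398, 429 and 434 TPM in gARID1A and 532, 535 and 514 TPM in gARID1A_1B. In gSMARCA4 it was 562, 543 and 562 TPM and in gSMARCA4_A2 653, 637 and 661 TPM. gARID1A was the lowest group and gSMARCA4_A2 overlapped the control. CD3E fell in gARID1A (-0.62 ± 0.04, adjusted p = 5.26e-10), gARID1A_1B (-0.30 ± 0.04, adjusted p = 6.64e-06) and gSMARCA4 (-0.22 ± 0.04, adjusted p = 0.000212). Here the group with both ARID1 paralogs targeted was above the group with ARID1A alone (0.33 ± 0.04, adjusted p = 7.48e-06), and gSMARCA4_A2 was above gSMARCA4 (0.23 ± 0.04, adjusted p = 0.000245, and 0.11 under median-ratio rescaling).

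CD3G rose in gARID1A_1B, where it was 165, 175 and 169.8 TPM beside 103, 110.3 and 101 TPM in gAAVS1 and 107, 110.2 and 104 TPM in gARID1A. In gSMARCA4 it was 109.8, 119 and 114 TPM and in gSMARCA4_A2 125, 125 and 120.4 TPM. The gARID1A_1B libraries stood apart from all other guide libraries. The changes were 0.69 ± 0.05 (adjusted p = 3e-10) in gARID1A_1B and 0.24 ± 0.05 (adjusted p = 0.00026) in gSMARCA4_A2, the latter falling to 0.08 and losing its call under median-ratio rescaling (adjusted p = 0.182). In gARID1A (0.03 ± 0.05, adjusted p = 0.72) and gSMARCA4 (0.12 ± 0.05, adjusted p = 0.0512) CD3G did not pass. The gSMARCA4 value lies close to the threshold and passed under the 5 TPM filter (adjusted p = 0.0483), without gAAVS1 replicate 2 (0.16, adjusted p = 0.0238) and without gSMARCA4 replicate 1 (0.15, adjusted p = 0.0371).

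CD3D was 533, 569 and 553 TPM in gAAVS1, 661, 712 and 704 TPM in gARID1A_1B and 628, 623 and 643 TPM in gSMARCA4. It rose in gARID1A_1B (0.33 ± 0.05, adjusted p = 9.55e-06) and in gSMARCA4 (0.19 ± 0.05, adjusted p = 0.00221). In gARID1A, at 568, 617 and 630.1 TPM, the value of 0.13 ± 0.05 lay at the threshold (adjusted p = 0.052) and passed without gARID1A replicate 1 (adjusted p = 0.0154) and under median-ratio rescaling (adjusted p = 0.0413). In gSMARCA4_A2 CD3D (0.01 ± 0.05) and CD3E (0.01 ± 0.04) did not pass, and both were called lower under median-ratio rescaling, at -0.15 (adjusted p = 0.0271) and -0.16 (adjusted p = 0.00426).

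**Figure D2:**
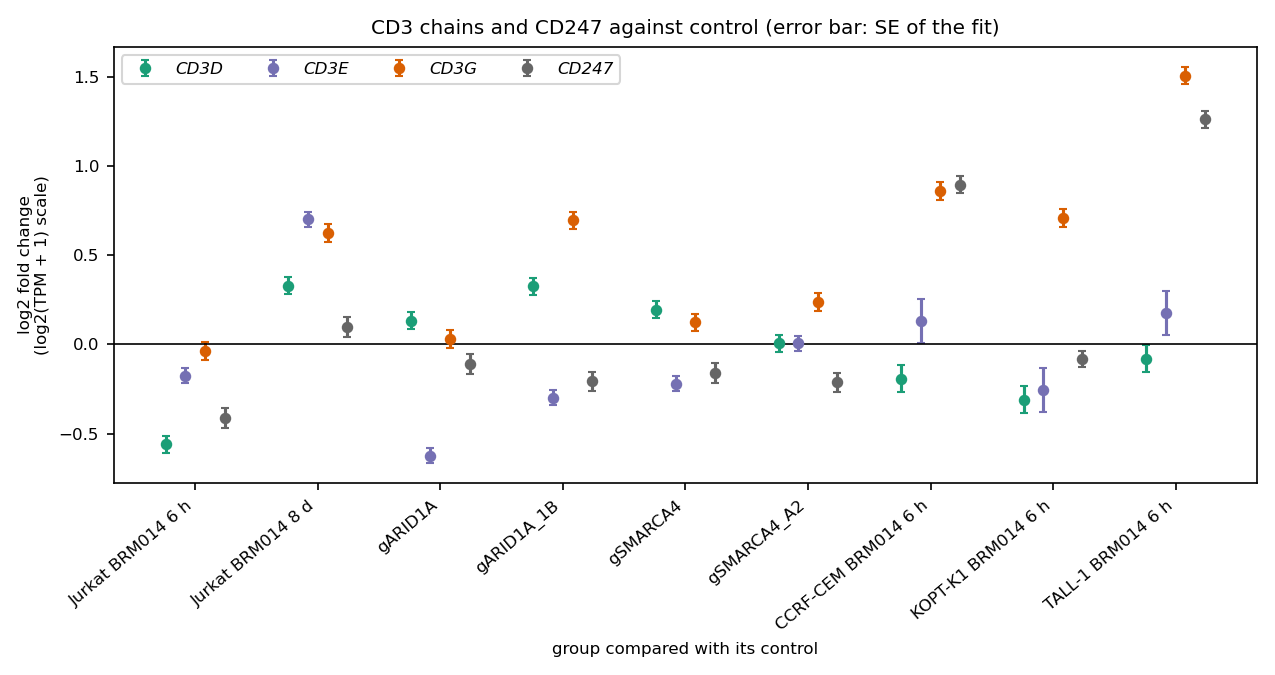
Log2 fold change against control (vertical axis, log2(TPM + 1) scale) of CD3D, CD3E, CD3G and CD247 in the 9 comparisons with a control (horizontal axis), with points for estimates and error bars for the standard error of the fit. In CCRF-CEM, KOPT-K1 and TALL-1 the CD3G point lies at 0.86, 0.71 and 1.51 while the CD3D point lies at -0.19, -0.31 and -0.08.

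In the other 3 lines CD3G rose at 6 h. It went from 212, 219.8 and 243 TPM to 411, 399 and 413 TPM in CCRF-CEM, and from 301, 302 and 306 TPM to 493, 493 and 503 TPM in KOPT-K1. In TALL-1 it went from 227, 225 and 209 TPM to 634, 643 and 604 TPM. All treated libraries were above all controls of their line, with changes of 0.86 ± 0.05 (adjusted p = 3.34e-09) in CCRF-CEM, 0.71 ± 0.05 (adjusted p = 3.6e-08) in KOPT-K1 and 1.51 ± 0.05 (adjusted p = 7.52e-12) in TALL-1.

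CD3D did not rise in these lines. It was 1335, 1287 and 1249 TPM in DMSO and 1094, 1068 and 962 TPM in BRM014 in KOPT-K1. In TALL-1 it was 988, 1019 and 986 TPM in DMSO and 974, 949 and 909.7 TPM in BRM014, and in CCRF-CEM 1416, 1452 and 1356 TPM in DMSO and 1281, 1373 and 1064 TPM in BRM014. It fell in KOPT-K1 (-0.31 ± 0.07, adjusted p = 0.00397) and its value in TALL-1 did not pass (-0.08 ± 0.07, adjusted p = 0.431). In CCRF-CEM the groups overlapped, and the fall (-0.19 ± 0.07, adjusted p = 0.0448) lost its call in 9 of 16 alternatives. Among these were no filter on low values (adjusted p = 0.217), only its own 6 libraries in the fit (adjusted p = 0.194), the fit without DMSO replicate 2 (-0.17, adjusted p = 0.124) or replicate 1 (adjusted p = 0.0951), without BRM014 replicate 3 (-0.09, adjusted p = 0.239) and with replicate 3 left out of both groups (-0.11, adjusted p = 0.143).

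For CD3E in CCRF-CEM, 907, 997 and 796 TPM in DMSO and 1074, 1155 and 762 TPM in BRM014, replicate 3 was the lowest library of both groups. The change of 0.13 ± 0.12 did not pass (adjusted p = 0.405), but it came to 0.31 (adjusted p = 0.00911) without BRM014 replicate 3 and to 0.23 (adjusted p = 0.0306) with replicate 3 left out of both groups. In KOPT-K1 CD3E was 1048, 978 and 969 TPM in DMSO and 885, 828 and 798 TPM in BRM014, and in TALL-1 1077, 1051 and 985 TPM in DMSO and 1279, 1168 and 1079 TPM in BRM014. The libraries did not overlap in either line. Neither the KOPT-K1 change (-0.25 ± 0.12, adjusted p = 0.121) nor the TALL-1 change (0.18 ± 0.12, adjusted p = 0.268) passed, although the KOPT-K1 value passed when the fit held only its own 6 libraries (adjusted p = 0.0076). With the replicate number as a block both passed (adjusted p = 0.00318 in KOPT-K1 and 0.0169 in TALL-1), but the numbers are not known to pair these libraries.

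CD247, the zeta chain, had the widest spread of line means of any member in DMSO. DMSO levels were 83.7, 78.4 and 80.8 TPM in CCRF-CEM, 237, 240.4 and 244 TPM in KOPT-K1 and 63.3, 60.9 and 63.2 TPM in TALL-1. BRM014 levels were 151, 155 and 149 TPM in CCRF-CEM, 223, 228 and 230.2 TPM in KOPT-K1 and 145, 145 and 163 TPM in TALL-1. The lines that began low rose, CCRF-CEM by 0.90 ± 0.05 (adjusted p = 9.72e-10) and TALL-1 by 1.26 ± 0.05 (adjusted p = 1.76e-11). KOPT-K1, which began high, did not pass the test (-0.08 ± 0.05, adjusted p = 0.173) except under median-ratio rescaling (-0.17, adjusted p = 0.0124). The ratio of the highest to the lowest line mean went from 3.85 in DMSO to 1.502 in BRM014.

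In Jurkat CD247 went the other way at 6 h. It was 83.1, 75.8 and 83.7 TPM in DMSO and 59.4, 67.2 and 55.6 TPM in BRM014 (-0.41 ± 0.06, adjusted p = 2.69e-06), and at 8 d 75.6, 78.4 and 76.8 TPM in DMSO and 87.3, 77.9 and 82.0 TPM in BRM014 (0.10 ± 0.06, adjusted p = 0.138), where the groups overlapped. Guide effects on CD247 were small, from a mean of 76.3 ± 3.06 TPM (SD, n = 3) in gAAVS1 to 65.9 ± 1.67 in gARID1A_1B, 68.1 ± 1.58 in gSMARCA4 and 65.7 ± 2.90 in gSMARCA4_A2. It fell in gARID1A_1B (-0.21 ± 0.06, adjusted p = 0.00468), gSMARCA4 (-0.16 ± 0.06, adjusted p = 0.0244) and gSMARCA4_A2 (-0.21 ± 0.06, adjusted p = 0.00211, or -0.37 under median-ratio rescaling). The gSMARCA4 call was lost without gAAVS1 replicate 2 (adjusted p = 0.104) or 3 (adjusted p = 0.0566), or without gSMARCA4 replicate 2 (adjusted p = 0.0871).

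Of the kinases, ZAP70 was called lower in all 9 comparisons with a control. In Jurkat it was 70.6, 68.8 and 71.5 TPM in DMSO and 32.0, 32.8 and 32.5 TPM in BRM014 at 6 h. At 8 d it was 54.6, 50.4 and 46.4 TPM in DMSO and 33.4, 31.1 and 31.5 TPM in BRM014. The treated level was nearly the same at both times, at means of 32.4 and 32.0 TPM, while the control was lower at 8 d. The change was -1.09 ± 0.06 (adjusted p = 2.92e-12) at 6 h and -0.64 ± 0.06 (adjusted p = 4.83e-09) at 8 d.

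ZAP70 stood at 60.5, 64.0 and 63.2 TPM in gAAVS1, 45.9, 50.7 and 56.6 TPM in gARID1A and 39.7, 38.9 and 37.0 TPM in gARID1A_1B. It stood at 41.6, 39.0 and 42.0 TPM in gSMARCA4 and 36.7, 36.9 and 38.4 TPM in gSMARCA4_A2. gARID1A was the least affected and the most spread of the targeted groups. Changes were -0.29 ± 0.06 (adjusted p = 0.000935) in gARID1A, -0.69 ± 0.06 (adjusted p = 5.08e-09) in gARID1A_1B, -0.60 ± 0.06 (adjusted p = 3.7e-08) in gSMARCA4 and -0.73 ± 0.06 (adjusted p = 7.6e-10) in gSMARCA4_A2. The step from gARID1A to gARID1A_1B passed the test (-0.39 ± 0.06, adjusted p = 4.63e-05), whereas that from gSMARCA4 to gSMARCA4_A2 did not (-0.13 ± 0.06, adjusted p = 0.0943) except under median-ratio rescaling (-0.24, adjusted p = 0.00302) and with only these groups in the fit (adjusted p = 0.0478).

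In the other lines ZAP70 began at 103, 97.2 and 101 TPM in CCRF-CEM, 115, 106 and 116 TPM in KOPT-K1 and 152, 163 and 158 TPM in TALL-1. After 6 h of BRM014 it stood at 55.5, 60.3 and 50.9 TPM in CCRF-CEM, 66.7, 62.7 and 61.4 TPM in KOPT-K1 and 62.7, 65.9 and 63.8 TPM in TALL-1. The 3 treated lines thus came to lie within 1.15 times of each other, from 1.57 times in DMSO. The fall was -0.85 ± 0.06 (adjusted p = 1.86e-08) in CCRF-CEM, -0.81 ± 0.06 (adjusted p = 4.52e-08) in KOPT-K1 and -1.28 ± 0.06 (adjusted p = 1.89e-10) in TALL-1.

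LCK, the kinase that acts before ZAP70, moved less and in both directions. In Jurkat it was 254, 236 and 252 TPM in DMSO and 168, 164 and 165 TPM in BRM014 at 6 h. At 8 d it was 202, 205 and 194 TPM in DMSO and 273, 235 and 246 TPM in BRM014. The treated libraries lay below their controls at 6 h and above them at 8 d. The change was -0.57 ± 0.06 (adjusted p = 6.52e-08) at 6 h and 0.32 ± 0.06 (adjusted p = 7.06e-05) at 8 d. LCK fell in gARID1A_1B (-0.34 ± 0.06, adjusted p = 8.34e-05) and gSMARCA4_A2 (-0.30 ± 0.06, adjusted p = 0.000176, or -0.46 under median-ratio rescaling), and the values in gARID1A (-0.07 ± 0.06, adjusted p = 0.457) and gSMARCA4 (-0.01 ± 0.06, adjusted p = 0.913) did not pass.

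Both groups in which a pair of subunits was targeted were lower in LCK than the group with a single target, with -0.27 ± 0.06 (adjusted p = 0.00209) for gARID1A_1B against gARID1A and -0.29 ± 0.06 (adjusted p = 0.000714) for gSMARCA4_A2 against gSMARCA4. In KOPT-K1 LCK went from 687, 684 and 663 TPM to 429, 438 and 431 TPM (-0.65 ± 0.04, adjusted p = 2.45e-08). In TALL-1 it went from 879, 897 and 868 TPM to 769, 776 and 704 TPM (-0.23 ± 0.04, adjusted p = 0.000369). In CCRF-CEM it was 459, 441 and 471 TPM in DMSO and 486, 515 and 487 TPM in BRM014, groups that did not overlap but were close. That rise (0.12 ± 0.04, adjusted p = 0.0347) was lost in 8 of the alternatives tried and came to 0.03 under median-ratio rescaling (adjusted p = 0.708).

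LAT, the scaffold, changed in both directions across the time points and the guides. In Jurkat at 6 h it was 87.6, 117 and 88.0 TPM in DMSO and 31.1, 46.2 and 28.8 TPM in BRM014, with replicate 2 the highest in both groups. At 8 d it was 72.1, 73.1 and 65.3 TPM in DMSO and 96.8, 88.0 and 96.8 TPM in BRM014. It fell at 6 h (-1.46 ± 0.13, adjusted p = 8.97e-09) and rose at 8 d (0.42 ± 0.13, adjusted p = 0.00839), where the BRM014 mean of 93.9 TPM was close to the 97.6 TPM of DMSO at 6 h and the DMSO mean had come down to 70.2. SPNS1, the upstream neighbour, had means of 36.6 TPM in DMSO and 39.4 TPM in BRM014 at 6 h, and 28.9 and 28.7 TPM at 8 d.

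With guides LAT was 105, 95.5 and 93.9 TPM in gAAVS1, 103, 104 and 103 TPM in gARID1A and 80.9, 68.9 and 69.0 TPM in gARID1A_1B. In gSMARCA4 it was 186, 153 and 158 TPM and in gSMARCA4_A2 120.4, 117 and 118 TPM. All 3 gSMARCA4 libraries were above all controls and all 3 gARID1A_1B libraries were below them. The change was 0.75 ± 0.13 (adjusted p = 8.34e-05) in gSMARCA4 and -0.43 ± 0.13 (adjusted p = 0.0113) in gARID1A_1B, and the latter was lost without gAAVS1 replicate 1 (-0.38, adjusted p = 0.051). In gSMARCA4_A2 it was 0.27 ± 0.13 (adjusted p = 0.0728), a value that passed when the fit held only these 6 libraries (adjusted p = 0.00132). gSMARCA4_A2 was higher than gARID1A_1B for LAT (0.70 ± 0.13, adjusted p = 0.000106) and lower than gSMARCA4 (-0.48 ± 0.13, adjusted p = 0.00616).

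Outside Jurkat LAT fell most in KOPT-K1, from 236, 229.8 and 222 TPM to 53.1, 47.2 and 50.8 TPM. In CCRF-CEM it was 351, 331 and 338 TPM in DMSO and 214, 224 and 163 TPM in BRM014, and in TALL-1 it was 146, 141 and 157 TPM in DMSO and 106, 105 and 91.0 TPM in BRM014. The treated and control libraries did not overlap in any of the 3 lines. The changes were -2.17 ± 0.10 (adjusted p = 5.76e-10) in KOPT-K1, -0.77 ± 0.10 (adjusted p = 8.81e-06) in CCRF-CEM and -0.55 ± 0.10 (adjusted p = 0.000227) in TALL-1. The gap between the highest and lowest line mean widened from 2.30 times in DMSO to 3.98 times in BRM014.

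Among the adaptors, TRAT1 showed the lowest value of any member in any comparison. Its level in Jurkat was 23.5, 17.8 and 18.9 TPM in DMSO at 6 h and 6.06, 7.29 and 6.23 TPM in BRM014. At 8 d it was 25.3, 24.4 and 25.2 TPM in DMSO and 0.503, 0.381 and 0.642 TPM in BRM014, which rested on 10 to 16 reads per library against 614 to 683. The groups did not overlap at either time, and all 3 BRM014 libraries at 8 d lay under all 3 at 6 h. TRAT1 fell at 6 h (-1.48 ± 0.09, adjusted p = 2.62e-11) and at 8 d (-4.11 ± 0.09, adjusted p = 4.97e-19). The added pseudocount compresses the second value, since the mean TPM at 8 d was 49.1 times lower than in DMSO and limma-voom on recovered reads gave -5.62.

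The guide groups fell into an order for TRAT1. In gAAVS1 it stood at 23.2, 26.1 and 24.4 TPM, in gARID1A at 11.5, 10.9 and 11.7 TPM and in gARID1A_1B at 8.87, 8.43 and 8.02 TPM. In gSMARCA4 it stood at 3.26, 2.71 and 2.83 TPM and in gSMARCA4_A2 at 2.53, 2.77 and 2.10 TPM. All 12 targeted libraries were below all 3 controls, with changes of -1.05 ± 0.09 (adjusted p = 2.45e-08) in gARID1A, -1.44 ± 0.09 in gARID1A_1B, -2.70 ± 0.09 in gSMARCA4 and -2.89 ± 0.09 in gSMARCA4_A2. TRAT1 was lower in gARID1A_1B than in gARID1A (-0.39 ± 0.09, adjusted p = 0.00396). Against gARID1A, gSMARCA4 was lower (-1.65 ± 0.09, adjusted p = 5.94e-12). The difference between gSMARCA4_A2 and gSMARCA4 did not pass the test (-0.18 ± 0.09, adjusted p = 0.114) except under median-ratio rescaling (-0.26, adjusted p = 0.019).

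The other lines carried more TRAT1 and their changes were smaller, across tables that were not tested against each other. DMSO levels were 94.6, 104 and 109 TPM in CCRF-CEM, 86.9, 80.8 and 89.2 TPM in KOPT-K1 and 81.4, 78.3 and 83.0 TPM in TALL-1. After BRM014 they were 66.2, 62.6 and 67.5 TPM in CCRF-CEM, 63.1, 64.0 and 72.9 TPM in KOPT-K1 and 70.9, 70.4 and 64.0 TPM in TALL-1. The 3 lines started at means of 80.9 to 103 TPM and ended at 65.4 to 68.4 TPM. The fall was -0.64 ± 0.07 (adjusted p = 1.49e-06) in CCRF-CEM, -0.36 ± 0.07 (adjusted p = 0.000517) in KOPT-K1 and -0.24 ± 0.07 (adjusted p = 0.00815) in TALL-1. The TALL-1 call was lost when genes of low level were kept in the fit (adjusted p = 0.0998).

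**Figure D3:**
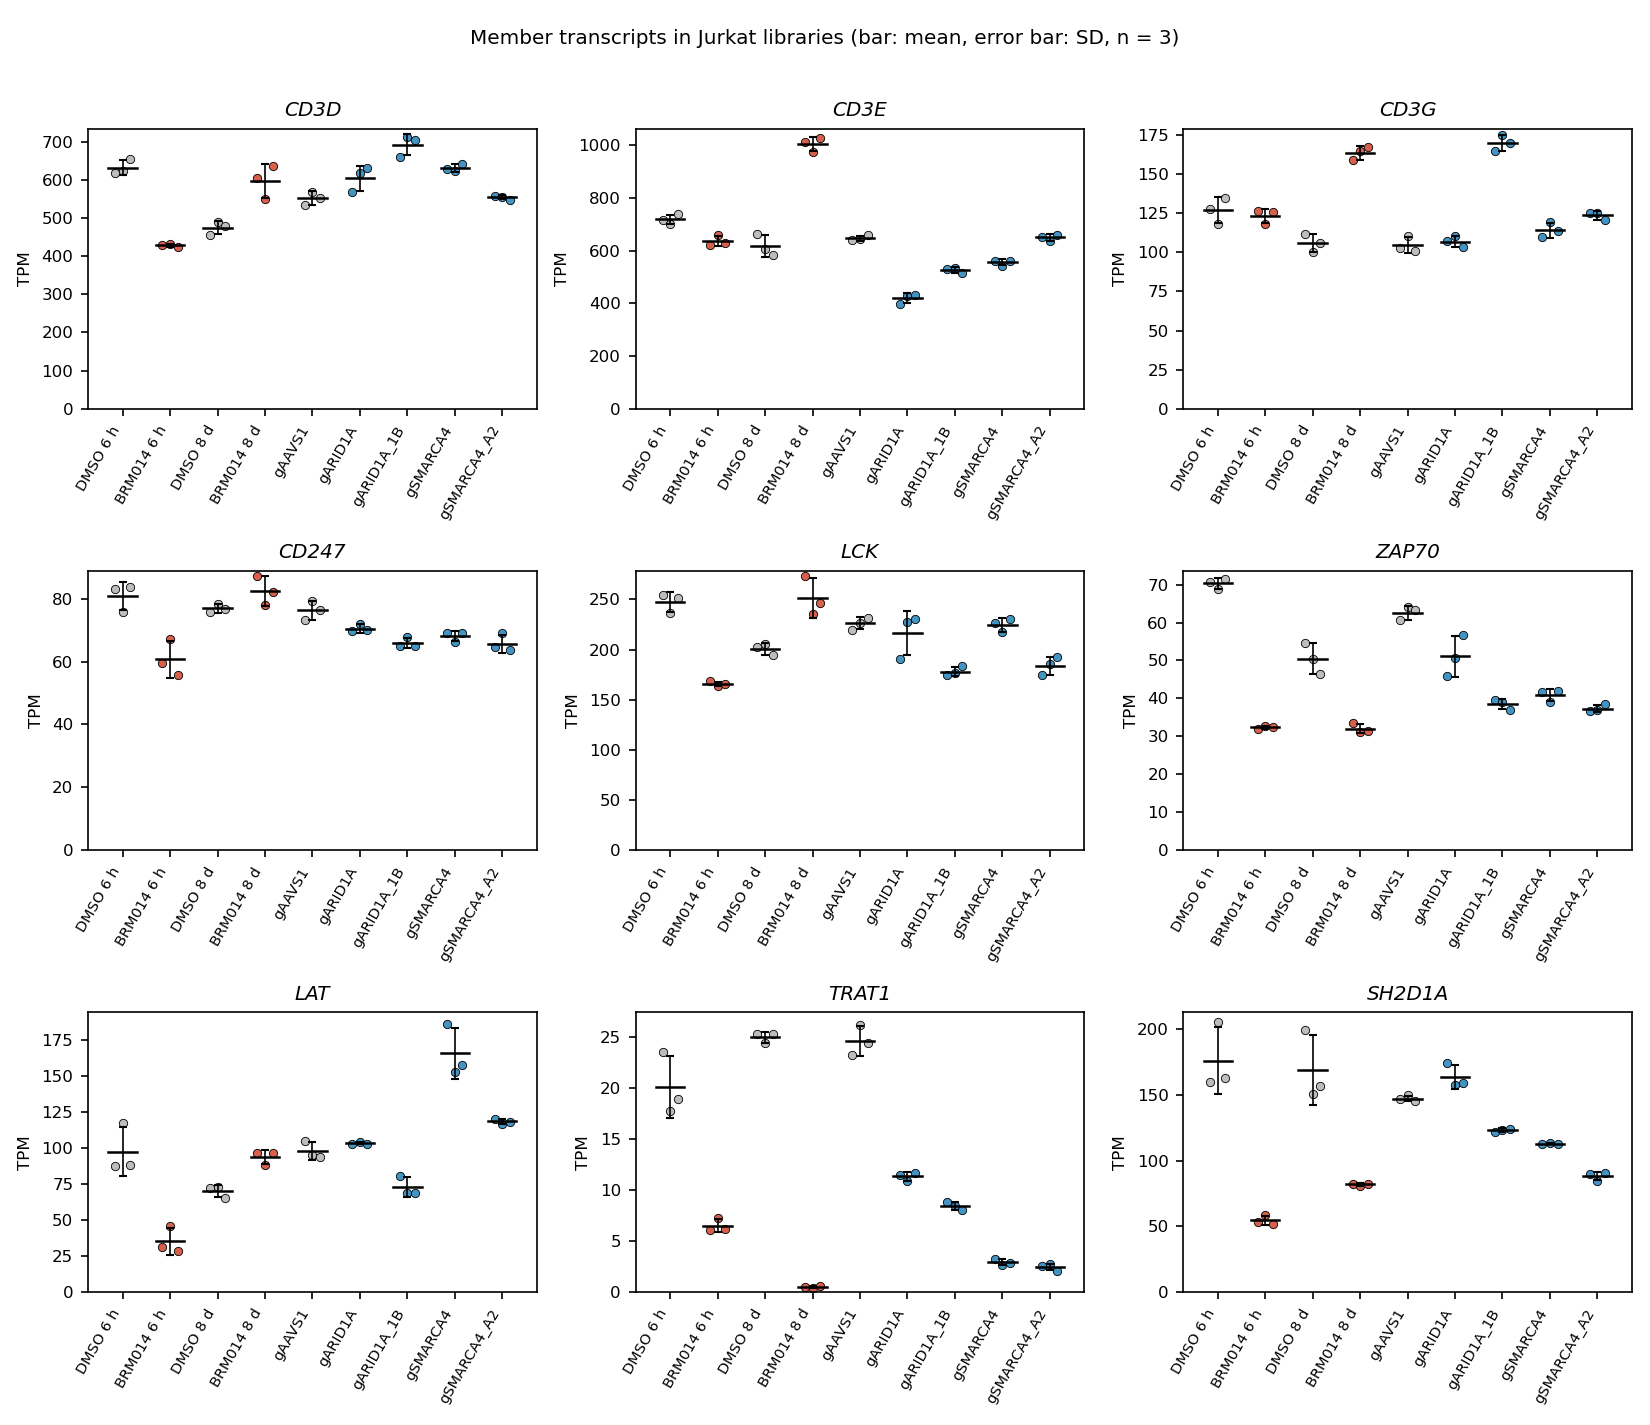
TPM of each member (linear axis from 0) in the 27 Jurkat libraries, with points for replicates, a bar for the mean and an error bar for the SD of 3 libraries; grey points are DMSO and gAAVS1, red points BRM014 and blue points targeted guides. TRAT1 drops to 0.381 to 0.642 TPM in BRM014 at 8 d, and ZAP70 is below its control in every treated and every targeted group.

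In Jurkat SH2D1A fell more at 6 h than at 8 d. Jurkat levels were 160.0, 205 and 163 TPM in DMSO and 53.4, 58.5 and 51.9 TPM in BRM014 at 6 h. At 8 d they were 199, 151 and 157 TPM in DMSO and 82.1, 81.1 and 82.7 TPM in BRM014. The BRM014 libraries were tight while the DMSO libraries each held 1 high value, replicate 2 at 6 h and replicate 1 at 8 d. The change was -1.66 ± 0.08 (adjusted p = 1.03e-12) at 6 h and -1.02 ± 0.08 (adjusted p = 7.28e-10) at 8 d. With guides the mean went from 147 ± 2.23 TPM (SD, n = 3) in gAAVS1 to 123 ± 1.35 in gARID1A_1B, 113 ± 0.529 in gSMARCA4 and 88.5 ± 3.17 in gSMARCA4_A2. In gARID1A it was 164 ± 9.28 TPM, a change of 0.15 ± 0.08 that did not pass the test (adjusted p = 0.216).

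For SH2D1A the changes were -0.26 ± 0.08 (adjusted p = 0.0179) in gARID1A_1B, -0.38 ± 0.08 (adjusted p = 0.000885) in gSMARCA4 and -0.73 ± 0.08 (adjusted p = 1.4e-07) in gSMARCA4_A2. The first of these was lost without gAAVS1 replicate 2 (-0.24, adjusted p = 0.0528). gSMARCA4_A2 was lower than gSMARCA4 (-0.35 ± 0.08, adjusted p = 0.00232), and gARID1A_1B was lower than gARID1A (-0.41 ± 0.08, adjusted p = 0.00126). STAG2, whose gene overlaps the SH2D1A model, had means of 122 TPM in DMSO and 116 TPM in BRM014 at 6 h in Jurkat, and 151 and 154 TPM in CCRF-CEM.

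CCRF-CEM carried the highest SH2D1A level, at 622, 695 and 497 TPM in DMSO and 149.6, 169.8 and 136 TPM in BRM014. KOPT-K1 stood at 219, 226 and 226 TPM in DMSO and 131, 134 and 136 TPM in BRM014. TALL-1 stood at 201, 215 and 186 TPM in DMSO and 80.7, 90.4 and 77.2 TPM in BRM014. Every treated library was below every control library of its line. The changes were -1.98 ± 0.10 (adjusted p = 1.32e-09) in CCRF-CEM, -0.74 ± 0.10 (adjusted p = 4.41e-05) in KOPT-K1 and -1.27 ± 0.10 (adjusted p = 1.16e-07) in TALL-1, and the spread of line means narrowed from 3.02 times to 1.84 times.

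**Figure D4:**
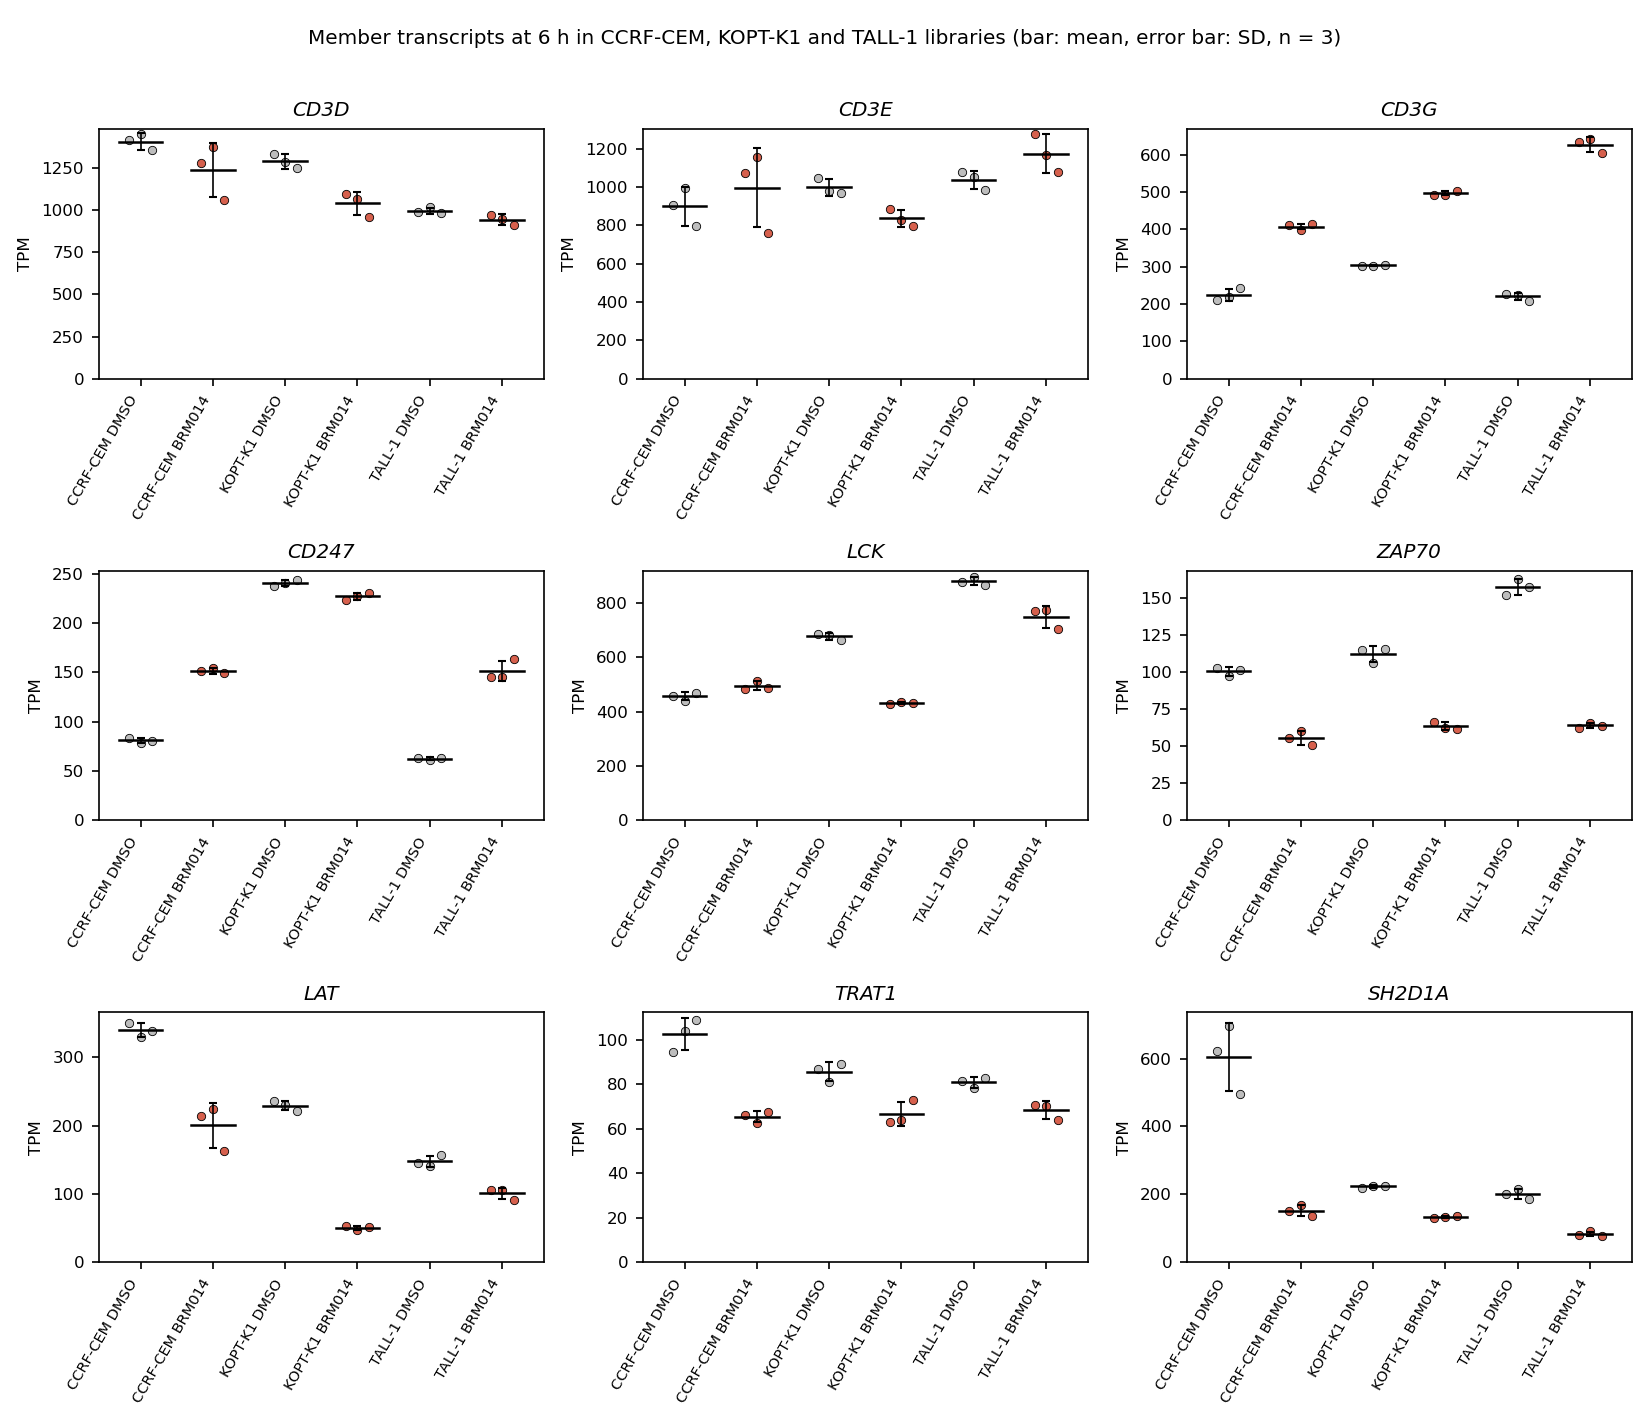
TPM of each member (linear axis from 0) at 6 h in the 18 libraries of CCRF-CEM, KOPT-K1 and TALL-1, with grey points for DMSO, red points for BRM014, a bar for the mean and an error bar for the SD of 3 libraries. CD247 libraries in DMSO lie at 60.9 to 83.7 TPM in CCRF-CEM and TALL-1 and at 237 to 244 TPM in KOPT-K1, and LAT in KOPT-K1 falls to 47.2 to 53.1 TPM.

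The BRM014 effects at 8 d and 6 h in Jurkat were compared by testing the difference between them. Each time has its own treated and control libraries. Time and any other difference between these 2 sets of libraries therefore cannot be told apart. The effect at 8 d was higher than that at 6 h for 8 of 9 members and lower for 1, TRAT1, where 25.7% of all genes were called higher and 18.5% lower. The difference was largest for LAT (1.87 ± 0.18, adjusted p = 5.38e-08), then LCK (0.90 ± 0.08), CD3D (0.89 ± 0.07) and CD3E (0.88 ± 0.06). For TRAT1 it was -2.63 ± 0.13 (adjusted p = 1.78e-12), or -4.01 by limma-voom. The controls of the 2 times also differed. In DMSO alone 6 members were lower at 8 d than at 6 h and 1, TRAT1, was higher, where 18.7% of all genes were lower and 16.6% higher. The share of these calls that were higher went from 47.1 to 60.1% with mitochondrial genes left out. ZAP70 (-0.47 ± 0.06), LAT (-0.46 ± 0.13) and CD3D (-0.41 ± 0.05) were the lowest, and the TRAT1 value (0.31 ± 0.09, adjusted p = 0.0111) was lost without DMSO 6 h replicate 2 (adjusted p = 0.0716) or replicate 3 (adjusted p = 0.0522). The LAT value was lost without DMSO 6 h replicate 2 (-0.32, adjusted p = 0.0615).

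The 3 other lines share a table, so their effects at 6 h could be compared. CCRF-CEM against KOPT-K1 gave 3 members higher and 1 lower (8.62% and 9.72% of all genes). LAT (1.39 ± 0.14, adjusted p = 5.33e-06), CD247 (0.98 ± 0.06, adjusted p = 1.21e-07) and LCK (0.76 ± 0.06, adjusted p = 6.93e-07) were the higher ones and SH2D1A (-1.24 ± 0.15, adjusted p = 3.44e-05) the lower. With the replicate number as a block, CD3E (0.39, adjusted p = 0.0045) and CD3G (0.15, adjusted p = 0.0336) also passed as higher and TRAT1 (-0.28, adjusted p = 0.0253) as lower. The deviations of same-numbered KOPT-K1 libraries from their group means correlated at only 0.106, 0.042 and 0.065. Each BRM014 library of that line still correlated best with the DMSO library of its own number. Whether the numbers pair these libraries is thus not known. With CCRF-CEM replicate 3 left out of both groups, CD3E came to 0.48 (adjusted p = 0.00497) and CD3G to 0.20 (adjusted p = 0.0321). Without BRM014 replicate 3 alone, CD3E came to 0.57 (adjusted p = 0.00384) and TRAT1 to -0.30 (adjusted p = 0.0469), and without DMSO replicate 3 alone CD3G came to 0.21 (adjusted p = 0.0256).

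KOPT-K1 against TALL-1 gave 2 members higher and 4 lower (11.2% and 10.1% of all genes). LAT (-1.61 ± 0.14, adjusted p = 1e-06), CD247 (-1.34 ± 0.06, adjusted p = 3.8e-09), CD3G (-0.80 ± 0.07, adjusted p = 1.43e-06) and LCK (-0.41 ± 0.06, adjusted p = 0.000194) were lower in KOPT-K1. CCRF-CEM against TALL-1 also gave 2 higher and 4 lower (10.5% and 9.85% of all genes), with ZAP70 (0.44 ± 0.08, adjusted p = 0.00129) and LCK higher, and SH2D1A (-0.71 ± 0.15, adjusted p = 0.00282), CD3G (-0.65 ± 0.07, adjusted p = 9.42e-06), TRAT1 and CD247 lower. The CD247 (adjusted p = 0.0508) and TRAT1 (adjusted p = 0.111) calls in CCRF-CEM against TALL-1 were lost with no filter on low values. The 3 contrasts share lines and are not independent of each other.

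Levels before treatment also differed between these lines. In DMSO, CD247 was higher in KOPT-K1 than in CCRF-CEM (CCRF-CEM minus KOPT-K1 -1.56 ± 0.05, adjusted p = 1.01e-13) and than in TALL-1 (1.93 ± 0.05, adjusted p = 5.4e-15). SH2D1A was higher in CCRF-CEM than in KOPT-K1 (1.42 ± 0.10, adjusted p = 8.76e-09) or TALL-1 (1.58 ± 0.10, adjusted p = 1.83e-09), and LAT fell in the order CCRF-CEM, KOPT-K1, TALL-1 with both steps passing (0.57 ± 0.10, adjusted p = 0.000101, and 0.63 ± 0.10, adjusted p = 2.59e-05). LCK ran in the opposite order, highest in TALL-1 at 879, 897 and 868 TPM. CD3E did not pass in any of the 3 pairs, with adjusted p between 0.142 and 0.703. The members called were 3 higher and 4 lower in CCRF-CEM against KOPT-K1 (32.9% and 29.6% of all genes), 5 and 2 in CCRF-CEM against TALL-1 (35.0% and 32.6%), and 4 and 2 in KOPT-K1 against TALL-1 (35.1% and 35.4%). By TPM, CD3D and CD3E headed the order of members in all 6 control groups, and TRAT1 was last in the 3 Jurkat control groups and in KOPT-K1.

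Targets were then set against each other in Jurkat. gSMARCA4_A2 against gARID1A_1B gave 2 members higher, LAT and CD3E (0.30 ± 0.04, adjusted p = 3e-06), and 4 lower, TRAT1 (-1.45 ± 0.09, adjusted p = 4.69e-11), SH2D1A, CD3G (-0.46 ± 0.05, adjusted p = 1.18e-07) and CD3D (-0.32 ± 0.05, adjusted p = 7.12e-06), where 43.2% of all genes were higher and 14.0% lower. Under median-ratio rescaling the share of calls that were higher went from 75.5 to 45.3%, CD3E came to 0.11 and CD3D to -0.51. CD247 (-0.19, adjusted p = 0.00706, from -0.01) and ZAP70 (-0.23, adjusted p = 0.0025, from -0.04) were then also called lower. gSMARCA4 against gARID1A gave 2 higher, LAT (0.67 ± 0.13, adjusted p = 0.000332) and CD3E (0.40 ± 0.04, adjusted p = 1.81e-07), and 3 lower, TRAT1, SH2D1A (-0.53 ± 0.08, adjusted p = 3.58e-05) and ZAP70 (-0.31 ± 0.06, adjusted p = 0.000257), beside 27.3% and 11.1% of all genes (share higher 71.1%, or 49.7% after rescaling). LAT and CD3E were thus higher, and TRAT1 and SH2D1A lower, with the ATPases targeted than with the ARID1 subunits in both pairings.

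Within each subunit class, gARID1A_1B against gARID1A gave 3 members higher and 5 lower (10.3% and 10.6% of all genes, share higher 49.5%, or 65.9% with mitochondrial genes left out). The higher members were the 3 CD3 chains, led by CD3G (0.66 ± 0.05, adjusted p = 2.44e-09), and the lower ones were LCK, ZAP70, LAT, TRAT1 and SH2D1A, with CD247 not called. gSMARCA4_A2 against gSMARCA4 gave 1 higher, CD3E, and 4 lower, LAT, SH2D1A, LCK and CD3D (-0.19 ± 0.05, adjusted p = 0.00353, or -0.30 after rescaling), beside 26.5% and 12.3% of all genes (share higher 68.3%, or 38.9% after rescaling).

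The likeness of patterns was described by Pearson's r over the 9 Jurkat group means on the log2(TPM + 1) scale, among 10531 genes. The points share controls and libraries, so r is given without a test. Among members the nearest pairs were CD247 with LCK (0.87), ZAP70 with SH2D1A (0.85) and TRAT1 with ZAP70 (0.81), and the CD3G pattern ran against that of TRAT1 (-0.55) and ZAP70 (-0.53). CD3D was nearest to LAT (0.66), and CD3G nearest to CD3D (0.44). The gene of highest r was ADA2 for TRAT1 (0.98), GRSF1 for SH2D1A (0.98), TTYH2 for ZAP70 (0.98), ORAI2 for LAT (0.97), STS for CD3G (0.95), PSD4 for CD247 (0.94), APBB1IP for CD3E (0.93), RARA for CD3D (0.92) and CD82 for LCK (0.91).

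Around the members, 73 other genes of the pathway were listed by role. Of these 67 are in the tables, and the TCR constant chain genes were not analysed here. The list was also chosen with earlier results of these data known, so its counts beside shares of all genes are not a test of it. After 6 h of BRM014, 9 of the 61 tested genes rose and 38 fell in Jurkat, 10 rose and 39 fell of 63 in CCRF-CEM, 8 rose and 35 fell in KOPT-K1, and 15 rose and 29 fell in TALL-1, with medians of -0.44, -0.40, -0.31 and -0.17 beside 0.04, 0.05, 0.04 and 0.03 for all genes. Of all genes tested, 26.8% rose and 20.7% fell in Jurkat, 28.9% and 20.9% in CCRF-CEM, 22.9% and 15.2% in KOPT-K1, and 26.6% and 19.3% in TALL-1. Of the 59 genes of the list tested in all 4 lines, 23 were called lower in every line and 3 were called higher in every line, beside 6.10% and 10.5% of the 15069 genes tested in all 4. The 3 were PRKCQ, the protein kinase C that signals to NF-kappaB from the receptor, PPP3CC, a calcineurin subunit, and SOS1, a Ras activator, named after their values were seen.

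The 23 included CD6, CD48, SLA, PTPN6, UBASH3B, GRAP, GRAP2, LAX1 and ORAI1, so where values of these genes are given for 1 or 2 lines, those are the lines in which the gene was chosen for its size of change within its role group. CD6, a surface regulator of T cell activation, fell from a mean of 31.7 to 7.10 TPM in Jurkat (-2.01 ± 0.10, adjusted p = 6.12e-13), with -3.31 ± 0.11 in CCRF-CEM, -2.16 ± 0.11 in KOPT-K1 and -2.71 ± 0.11 in TALL-1. All 6 tested genes of the coreceptor group fell in Jurkat at 6 h, and 6, 6 and 4 of 8 fell in CCRF-CEM, KOPT-K1 and TALL-1 with 0 called higher. CD48, the SLAM family ligand, fell in Jurkat (-2.63 ± 0.16, adjusted p = 1.94e-11), KOPT-K1 (-2.31 ± 0.15), TALL-1 (-2.65 ± 0.15) and CCRF-CEM (-0.72 ± 0.15). Another SLAM receptor, SLAMF6, rose in CCRF-CEM (1.15 ± 0.12, adjusted p = 1.63e-06), KOPT-K1 (1.08 ± 0.12) and Jurkat (0.33 ± 0.13), while its TALL-1 value did not pass (-0.10 ± 0.12, adjusted p = 0.574).

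Among regulators of the kinases, SLA, an adaptor that dampens receptor signalling, fell in Jurkat (-2.74 ± 0.18, adjusted p = 1.61e-10) and TALL-1 (-1.91 ± 0.06). PTPN6, the phosphatase SHP-1, fell in CCRF-CEM (-1.50 ± 0.11, adjusted p = 2.66e-08), and UBASH3B, a phosphatase of the same pathway, fell in KOPT-K1 (-1.45 ± 0.07, adjusted p = 8.38e-10). GRAP2, the adaptor that links LAT to LCP2, fell in CCRF-CEM (-2.06 ± 0.07, adjusted p = 2.87e-11) and KOPT-K1 (-1.34 ± 0.07), GRAP in TALL-1 (-1.43 ± 0.09), and LAX1, a LAT-related adaptor, in Jurkat (-2.45 ± 0.13, adjusted p = 4.09e-12). Downstream, ORAI1, the calcium channel, fell in TALL-1 (-2.03 ± 0.11, adjusted p = 1.6e-09). The calcium, protein kinase C and NFAT genes were otherwise mixed, with 5 of 17 higher and 6 lower in Jurkat.

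At 8 d, 22 genes of the list were higher and 26 lower of 61, where 36.9% of all genes were higher and 23.0% lower, with a median of -0.03 beside 0.08. CD6 (-3.78 ± 0.10, adjusted p = 7.71e-18) and CD48 (-3.46 ± 0.16) were still lower, and among the rises were those of SH2D2A, an adaptor that binds LCK (2.34 ± 0.16, adjusted p = 1.65e-10), CD69, an early activation marker (1.97 ± 0.24, adjusted p = 4.89e-07), and PTPN6 (1.88 ± 0.14, adjusted p = 4.74e-10). At 8 d PTPN6 was at a mean of 33.1 TPM in DMSO and 125 TPM in BRM014, while at 6 h in the same line it fell from 113 to 22.2 TPM (-2.30 ± 0.14, adjusted p = 6.72e-11). The 2 effects differed (4.17 ± 0.20, adjusted p = 4.18e-12 for 8 d minus 6 h), and so did the DMSO levels (-1.72 ± 0.14, adjusted p = 1.66e-07 for 8 d against 6 h).

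With guides the list gave 11 higher and 15 lower in gARID1A, 16 and 24 in gARID1A_1B, 16 and 23 in gSMARCA4, and 18 and 24 in gSMARCA4_A2, of 61. Of all genes, 7.72% were higher and 13.2% lower in gARID1A, 17.0% and 23.1% in gARID1A_1B, 25.1% and 15.8% in gSMARCA4, and 40.9% and 21.1% in gSMARCA4_A2. CD48 fell in all 4, with -1.37 ± 0.16, -2.27 ± 0.16, -1.89 ± 0.16 and -1.93 ± 0.16 in that order. CD6 also fell in all 4, with -0.80 ± 0.10 in gARID1A, -0.44 ± 0.10 in gARID1A_1B, -1.67 ± 0.10 in gSMARCA4 and -1.67 ± 0.10 in gSMARCA4_A2. In gARID1A the leading coreceptor change was a rise of CD28 (1.00 ± 0.16, adjusted p = 6.47e-05) and in gARID1A_1B a rise of CD4 (1.84 ± 0.12, adjusted p = 4.83e-11), from means of 2.71 to 6.45 TPM and 1.73 to 8.76 TPM. LAX1 rose in gARID1A_1B (1.14 ± 0.13, adjusted p = 5.66e-07) and fell in gSMARCA4 (-0.97 ± 0.13) and gSMARCA4_A2 (-1.12 ± 0.13). PRKCQ rose in all 4, with 0.70 ± 0.09, 0.36 ± 0.09, 1.22 ± 0.09 and 1.04 ± 0.09 in the same order. PTPN6 rose in gARID1A_1B (1.60 ± 0.14), gSMARCA4 (0.94 ± 0.14) and gSMARCA4_A2 (1.02 ± 0.14), and CD69 rose in gSMARCA4_A2 (1.52 ± 0.24, adjusted p = 1.39e-05).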

How the data were processed

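RNA-seq was done on 45 libraries. Per the submitters' processing notes the tools were HISAT2 2.2.1, featureCounts 2.0.3 and DESeq2 1.38.2 with build hg38, and other settings are not given in the sources used here. The authors deposited TPM values and gene lengths in 2 tables, which were fitted separately because extraction and library kits differed. TPM times length gave whole reads within 0.01 for 100% of values, so depth could be recovered.

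Genes that reached 1 TPM in 3 or more libraries of a table (17936 in Jurkat, 16241 in the other lines) were fitted with limma 3.58.1 (R 4.3.3, lmFit and eBayes with trend and robust settings) on log2(TPM + 1), all groups of a table together, with Benjamini-Hochberg adjustment over all genes, and 0.05 as the threshold. The model was checked on simulated data. The median-ratio rescaling, the mitochondrial genes, the filter (5 TPM or none), the pseudocount (0.1), limma-voom on recovered reads, the variance model, the groups in the fit, the replicate block and each library were varied. Exact permutation tests used scipy 1.17.1.

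The 9 members and all lists were chosen with earlier results of these data known. Named pathway genes were, per role and control comparison, the called gene with the largest change among genes whose mean reached 5 TPM. Some results under this rule are not reported here. Likeness named the gene with the highest r among genes that reached 5 TPM in a Jurkat group mean. Replicates are biological replicates per the labels, and whether they were separate cultures is not stated, so p-values measure the spread between these libraries.

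Same-numbered libraries paired by the correlation of their deviations from group means (above 0.1 in all 3 pairs) in CCRF-CEM only, at 0.12, 0.29 and 0.45. The source of this pairing is the data, not the labels.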

Additional observations from a re-analysis of the deposited data

Results flagged for a closer look

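Members whose BRM014 effect differed between 2 times or 2 lines, by the limma test of the difference itself, are given here as log2 values with no explanation. Between 8 d and 6 h in Jurkat, the effect on all 9 members differed. It was higher at 8 d by 1.87 for LAT, 0.90 for LCK, 0.89 for CD3D, 0.88 for CD3E, 0.66 for CD3G, 0.64 for SH2D1A, 0.51 for CD247 and 0.45 for ZAP70, and for TRAT1 the difference was -2.63.

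Between CCRF-CEM and KOPT-K1 the effect differed for LAT (1.39), CD247 (0.98), LCK (0.76) and SH2D1A (-1.24). Between CCRF-CEM and TALL-1 it differed for ZAP70 (0.44), LCK (0.35), CD247 (-0.37), TRAT1 (-0.40), CD3G (-0.65) and SH2D1A (-0.71). Between KOPT-K1 and TALL-1 it differed for SH2D1A (0.53), ZAP70 (0.47), LCK (-0.41), CD3G (-0.80), CD247 (-1.34) and LAT (-1.61). Each value is the first line minus the second, and the 3 pairs share lines. With no filter on low values, SH2D1A in KOPT-K1 minus TALL-1 lost its call (adjusted p = 0.143). So did CD247 (adjusted p = 0.0508) and TRAT1 (adjusted p = 0.111) in CCRF-CEM minus TALL-1.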

How the results depend on the processing

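Of 81 member effects in the 9 comparisons with a control, 63 were called, 56 of these kept their call in every alternative run and 7 lost it in at least 1. Of the 18 not called, 9 passed in at least 1. Reversed values were those of CD3D (-0.1543) and CD3E (-0.1551) in gSMARCA4_A2 under median-ratio rescaling. Members called higher, against 3 in CCRF-CEM minus KOPT-K1, were 5 with the replicate block and 5 with CCRF-CEM replicate 3 left out of both groups, an alternative chosen after seeing the data. They were 1 against 2 in KOPT-K1 minus TALL-1 with no filter. In gARID1A they were 1 against 0 under the 5 TPM filter, limma-voom, median-ratio rescaling and the replicate block, and 0 to 1 with 1 library left out. In gSMARCA4_A2 they were 0 against 1 under median-ratio rescaling, and 2 with only its groups in the fit or with the replicate block. In gSMARCA4_A2 against gSMARCA4 they were 2 against 1 without mitochondrial genes and with the replicate block, and 1 to 2 with 1 library left out. In DMSO at 8 d against 6 h they were 0 against 1 with only those groups in the fit, and 0 to 1 with 1 library left out. Members called lower, against 1 in CCRF-CEM minus KOPT-K1, were 2 under the 5 TPM filter, median-ratio rescaling and the replicate block, and 1 to 2 with 1 library left out. They were 2 against 4 in CCRF-CEM minus TALL-1 with no filter, 7 against 4 in gSMARCA4_A2 against gSMARCA4 under median-ratio rescaling, and 3 against 6 in DMSO at 8 d against 6 h with only those groups in the fit. The cause of these shifts was not tested. The replicate block changed 11 member calls in all, 11 gained and 0 lost, and was not run for the comparisons between lines in DMSO and between times in DMSO. Every sample correlated best with its own number in Jurkat at 6 h, gARID1A_1B, CCRF-CEM, KOPT-K1 and TALL-1, a hint from the data and not the design. Depth limits TRAT1 in Jurkat BRM014 at 8 d, with 10 to 16 reads per library.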

Other observations

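CD3G and CD3D are read from neighbouring starts in opposite directions, so their TPM ratio was taken in each library, a measure chosen after the values were seen. CD3G over CD3D was 0.221 ± 0.009 in TALL-1 in DMSO (SD, n = 3) and 0.664 ± 0.013 in BRM014. In CCRF-CEM the mean ratio was 0.160 in DMSO and 0.333 in BRM014, in KOPT-K1 0.235 and 0.478, in Jurkat at 6 h 0.201 and 0.288, and in Jurkat at 8 d 0.224 and 0.275. With guides it was 0.190 in gAAVS1, 0.246 in gARID1A_1B and 0.223 in gSMARCA4_A2. The treated or targeted libraries were above all 3 controls in these 7 comparisons, each with an exact two-sided permutation p of 0.1, the smallest that 3 against 3 allows (0.1286 after Benjamini-Hochberg adjustment over 9 comparisons). In gARID1A and gSMARCA4 the log2 changes of the ratio were -0.10 and -0.07 (exact permutation p = 0.2 for both), and the libraries overlapped those of the control.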
